A study of Schizosaccharomyces pombe with 3 samples.

Results

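The genes gst2 (SPCC965.07c), yhb1 (SPAC869.02c) and obr1 (SPAC3C7.14c) of the fission yeast Schizosaccharomyces pombe are described here, 3 of 444 genes with an entry in the tables of this glucose experiment. They were found by gene name or identifier, and they had been selected on the same FPKM values that are given below, because these increased from 3% to 5% to 8% glucose. Their levels and ratios are therefore a description, and no test was made on them. All 3 genes had an entry in the table of T1 vs T3 and in that of T2 vs T3, and none had one in that of T1 vs T2. Their values in T1, T2 and T3 were joined from the first 2 of these tables. Entries higher at the higher glucose amounted to 4.59% of annotated protein-coding genes in T1 vs T3, 1.56% in T2 vs T3 and 1.19% in T1 vs T2. The absence of the members from T1 vs T2 is thus near the share of all genes.

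Wild type 972h- cells were grown to mid-log phase at 30°C in Synthetic Dextrose (SD) medium with 3% (T1), 5% (T2) or 8% (T3) glucose, which was present from the start of growth. Total RNA of 3 cultures per medium was pooled, and 1 library of polyadenylated RNA was sequenced from each pool. No difference therefore has a replicate check, the spread between cultures is unknown, and every interval given here covers counting error only. The counts and FPKM values imply 5744745 fragments for T1, 5887770 for T2 and 5819055 for T3. The tables list only genes that passed the authors' own screen for a change of at least 2-fold in that comparison, so a gene without an entry may be unchanged, silent or below that threshold.

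Glutathione S-transferases attach the tripeptide glutathione to reactive compounds, which marks them for export or sequestration. Flavohemoglobins such as Yhb1 convert nitric oxide to nitrate with the help of NAD(P)H. Obr1 belongs to a family of flavodoxin-like proteins related to quinone oxidoreductases, and in fission yeast obr1 is a known target of Pap1, the AP-1-like transcription factor that enters the nucleus upon oxidative stress. The deposited descriptions call Gst2 a glutathione S-transferase, Yhb1 a predicted nitric oxide dioxygenase and Obr1 the ubiquitinated histone-like protein Uhp1.

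Each member is a gene with 1 exon in the assembly ASM294v3. The gene gst2 lies on the minus strand of chromosome III at 2294617-2296105, with 38 bases of 5′ UTR, 693 coding bases and 758 bases of 3′ UTR. The gene yhb1 lies on the plus strand of chromosome I at 5517951-5519950, with 8, 1284 and 708 bases of these parts. The gene obr1 lies on the minus strand of chromosome I at 2094110-2094984, with 93, 609 and 173 bases. The tables carry no coordinates and none of the sources used here names the build behind them. Their gene models are longer than those of ASM294v3 by 278 bases for gst2, 86 for yhb1 and 82 for obr1.

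The 250 bases before each annotated transcript start are shown because the FPKM of all members increased with glucose and Pap1 is known to bind AP-1-like sequences. They were read 5′ to 3′ on the strand of the gene from ASM294v3, at chrIII:2296106-2296355 (minus) for gst2, chrI:5517701-5517950 (plus) for yhb1 and chrI:2094985-2095234 (minus) for obr1. Capitals mark matches on either strand to the letters TTACGTAA, TTAGTCA or TTACTAA.
gst2: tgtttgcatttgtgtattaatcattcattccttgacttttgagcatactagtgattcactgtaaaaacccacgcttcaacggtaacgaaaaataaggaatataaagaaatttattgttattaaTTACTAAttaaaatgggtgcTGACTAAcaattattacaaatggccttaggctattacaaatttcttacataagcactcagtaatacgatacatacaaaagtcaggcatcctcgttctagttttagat
yhb1: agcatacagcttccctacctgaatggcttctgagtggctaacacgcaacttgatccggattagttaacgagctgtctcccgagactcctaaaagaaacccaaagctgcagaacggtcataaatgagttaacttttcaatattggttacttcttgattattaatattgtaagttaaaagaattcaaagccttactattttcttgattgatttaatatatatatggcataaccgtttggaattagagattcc
obr1: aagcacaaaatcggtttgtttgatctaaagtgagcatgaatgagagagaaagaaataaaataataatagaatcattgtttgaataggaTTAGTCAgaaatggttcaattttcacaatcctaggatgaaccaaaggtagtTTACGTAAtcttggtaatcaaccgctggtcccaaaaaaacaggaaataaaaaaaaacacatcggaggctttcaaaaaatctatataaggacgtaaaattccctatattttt

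The upstream window of gst2 held TTACTAA at 127 to 121 bases before the start and TTAGTCA, on the opposite strand and thus printed as TGACTAA, at 107 to 101 bases. In the window of obr1, TTAGTCA stood at 162 to 156 bases and the palindrome TTACGTAA at 111 to 104 bases before the start. The yhb1 window had no match to any of these letters. Over the 5112 windows of the same length before protein-coding genes, TTACGTAA was found in 0.469%, TTAGTCA in 3.89% and TTACTAA in 10.7%. TTACGTAA and TTAGTCA were found together in 1 window, that of obr1, and TTACTAA and TTAGTCA together in 31 windows. These pairs were looked up after the matches had been seen.

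Other letters were searched on both strands in the same windows. TATAAA, found in 44.4% of all windows, was present in gst2 at 151 to 146 bases before the start and is not capitalised. The members had no match to TGACGTCA (0.274% of windows), to TGACGT (5.52%, which lies within TGACGTCA), to GAANNTTC (9.49%) or to CCCCT (8.26%). No matches in the 3 windows overlapped. A match describes letters only and does not show that a factor binds there. The starts are those annotated in ASM294v3, and the longer gene models of the tables may start elsewhere. Annotated non-coding RNAs overlap each window, among them SPNCRNA.794, which covers 236 of the 250 bases before obr1 on the same strand.

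**Figure D1:**
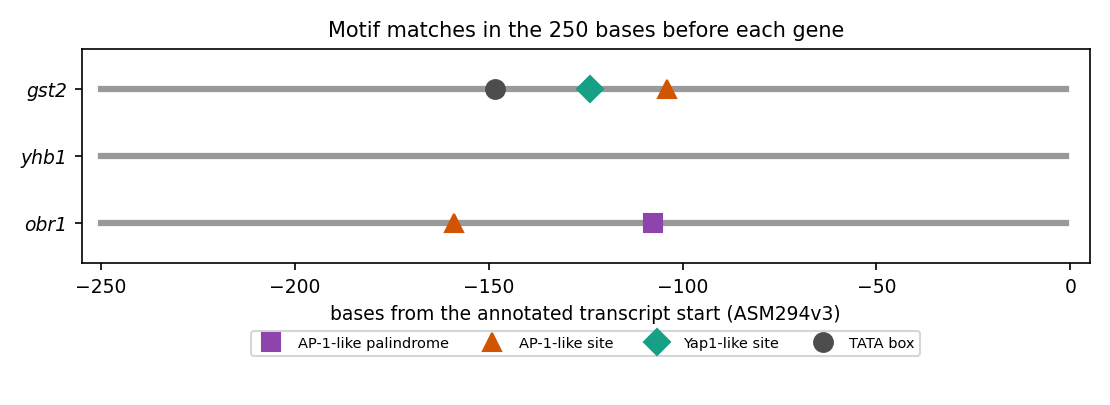
Matches to the searched letters in the 250 bases before the annotated transcript start of gst2, yhb1 and obr1, with the horizontal axis in bases before the start. Squares (AP-1-like palindrome) stand for TTACGTAA, triangles (AP-1-like site) for TTAGTCA, diamonds (Yap1-like site) for TTACTAA and circles (TATA box) for TATAAA; gst2 has 3, obr1 has 2 and yhb1 has none.

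The glutathione S-transferase gene gst2 was at 145 FPKM in T1, 229 in T2 and 938 in T3. These values rested on 1424, 2315 and 9355 counts, with 95% Poisson intervals of 138-153, 220-238 and 919-957 FPKM. The intervals of the 3 libraries did not overlap, but gst2 had been selected for this increase. How many of all entries have separate intervals was not counted. T3 exceeded T1 by 6.45-fold (6.10-6.82), a log2 ratio of 2.69, and exceeded T2 by 4.10-fold (3.91-4.29). The T2 level was 1.57 times that of T1 (1.47-1.68), below the 2-fold of the T1 vs T2 table. By log2 ratio, gst2 stood at rank 9 of the 230 entries higher in T3 than in T1 with reads in both libraries, and at rank 7 of the 80 higher in T3 than in T2.

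The nitric oxide dioxygenase gene yhb1 was the lowest of the members, at 52.9 FPKM in T1, 73.45 in T2 and 236 in T3. Its counts were 615, 881 and 2788, with intervals of 48.8-57.3, 68.7-78.5 and 227-245 FPKM. The T3 level was 4.45 times that of T1 (4.08-4.87), a log2 ratio of 2.15 and rank 26 among the entries higher in T3. The ratio of T3 to T2 was 3.21 (2.97-3.46), and that of T2 to T1 was 1.39 (1.25-1.54).

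The gene obr1 was the most abundant member in every library, at 1675 FPKM in T1, 1819 in T2 and 4389 in T3. With 8605, 9727 and 23107 counts its intervals were narrow, at 1639-1710, 1783-1855 and 4332-4446 FPKM. In T3 it had the highest FPKM of all 423 entries with a T3 value. It took 0.397% of the 5819055 fragments implied by the counts and FPKM (Clopper-Pearson interval 0.392-0.402). The authors reported more reads mapped to genes than these fragments account for, so this share may be too high. The ratio of T3 to T1 for obr1 was 2.62 (2.56-2.69), a log2 ratio of 1.39 and only rank 107 of 230. That of T3 to T2 was 2.41 (2.36-2.47). Between T1 and T2 it differed by 1.09-fold (1.06-1.12), or 0.12 on the log2 scale. Relative to the median of the entries with 3 values, which was 0.42 higher in T2 than in T1 on the log2 scale, this small difference turned to -0.30.

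**Figure D2:**
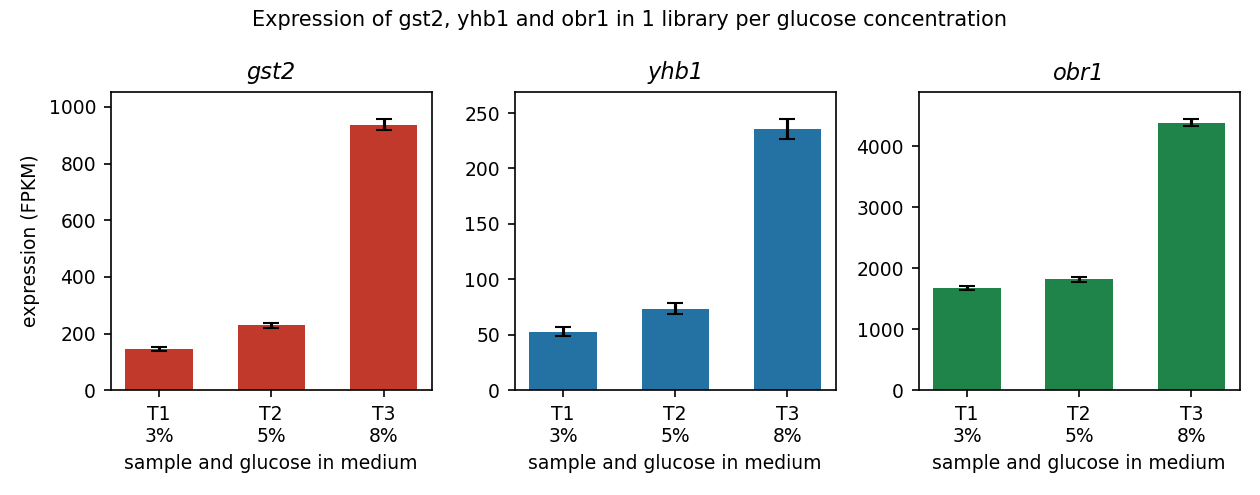
FPKM of gst2, yhb1 and obr1 (vertical axes, each from 0) at 3%, 5% and 8% glucose (T1, T2 and T3). Bars are the value of 1 library and error bars its 95% Poisson interval; in each panel the T3 bar stands far above the other 2, at 938 FPKM for gst2, 236 for yhb1 and 4389 for obr1.

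The members differed in how their rise was divided over the glucose range. Of the log2 rise from T1 to T3, 75.7% fell between T2 and T3 for gst2, 78.0% for yhb1 and 91.4% for obr1. This division depended on the scaling. Relative to the median of the entries with 3 values, T3 over T2 on the log2 scale was no smaller than T3 over T1, at 2.13 beside 2.11 for gst2, 1.77 beside 1.58 for yhb1 and 1.36 beside 0.81 for obr1. Among the 77 entries with reads in T1 that rose at each step, the median of this share was 70.4%, with a range of 5.53% to 99.9%. Within these 77 entries, obr1, gst2 and yhb1 had the first, the third and the eighth highest FPKM in T3.

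The order of the members by FPKM, obr1 above gst2 above yhb1, was the same in the 3 libraries. The distances between them changed with glucose. FPKM of obr1 was 11.5 times that of gst2 in T1, 7.95 times in T2 and 4.68 times in T3. The ratio of gst2 to yhb1 moved the other way and was 2.75 in T1, 3.12 in T2 and 3.98 in T3.

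**Figure D3:**
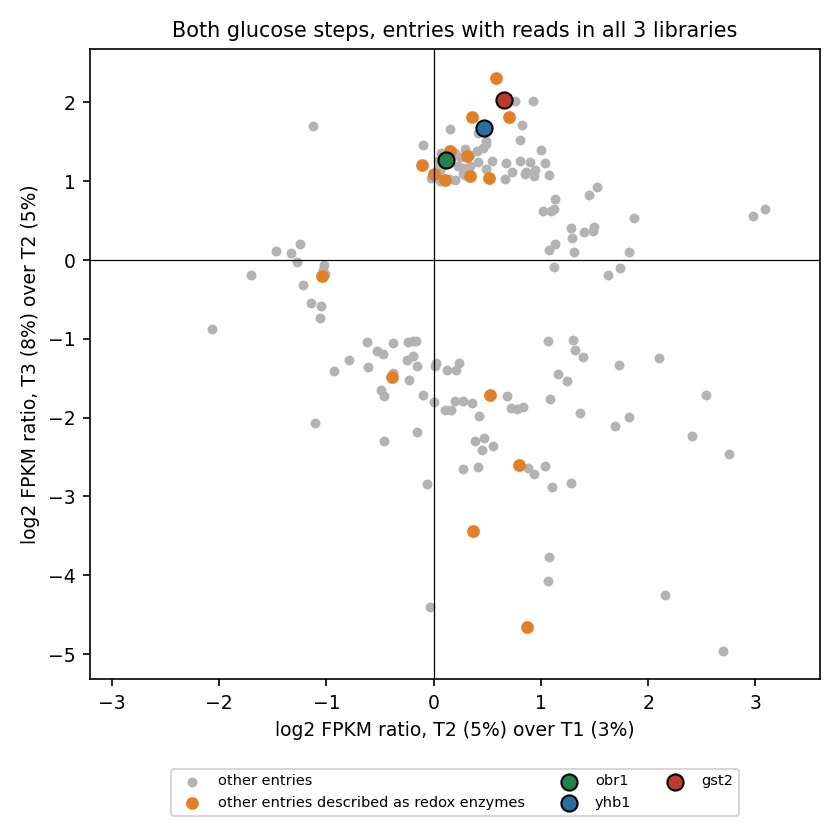
Log2 FPKM ratio of T2 over T1 (horizontal axis) against that of T3 over T2 (vertical axis) for the 169 entries with reads in all 3 libraries that lie within the plotted range; 4 lie outside it. Both axes share the T2 library. The members (large coloured points) lie in the upper right of the plot, at 0.65 and 2.03 for gst2, 0.47 and 1.68 for yhb1 and 0.12 and 1.27 for obr1.

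All 9 of the members' counts were whole numbers, whereas 32 entries of the tables carried a fractional count, which arises when reads are divided between similar sequences. The coding sequence of gst2 was 76.4% identical to that of gst1, the closest of its relatives, with a longest identical run of 19 bases, and 47.9% identical to that of gst3. Neither gst1 nor gst3 had an entry in any table. Annotated non-coding RNAs lie on the opposite strand of all members in ASM294v3. SPNCRNA.7703 spans the whole of gst2, SPNCRNA.793 the whole of obr1, and SPNCRNA.4492 covers 42.4% of yhb1. The described steps do not state that reads were assigned by strand, so reads of a member and of its antisense partner cannot be told apart.

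None of the 6 protein-coding neighbours of the members had an entry. The nearest was osr2, which ends 42 bases from gst2, and the others lay 882 to 3085 bases away. With 444 entries beside 5124 annotated protein-coding genes, none of 6 is near the share of all genes.

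For each member, the 5 genes with the most similar profile were taken from the 136 other genes with values in all libraries and at least 30 counts in each, the members themselves left out, by the distance between centred log2 FPKM values. The profile nearest to gst2 was that of mug72, a predicted oxidoreductase, with 3.16 FPKM in T1, 5.13 in T2 and 18.05 in T3 and a distance of 0.16 log2 units. It rested on 43, 72 and 250 counts. The interval of its log2 ratio of T3 to T1, 2.04-3.02, was wider than this distance. Next came osr1, a short chain dehydrogenase gene at 25.4, 37.95 and 188 FPKM, at a distance of 0.20. The further 3 were SPCC663.08c, another short chain dehydrogenase gene, mam3, which encodes a cell agglutination protein, and med13, a Mediator subunit, at 0.37 to 0.51. Counts of med13 were low too, at 51, 74 and 208. For comparison, the median distance of the 136 genes from gst2 was 2.72.

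The gene nearest to yhb1 was SPCC663.08c, at 27.2, 34.7 and 122 FPKM, with a distance of 0.11. After it came med13 (0.13), mam3 (0.23), mug72 (0.26) and SPAPB24D3.07c (0.27), a gene without known relatives according to its description. Of these 5 genes, 4 were also among the 5 named for gst2. The distance between gst2 and yhb1 themselves was 0.38, less than that of med13 from gst2, and that of either from obr1 was larger, at 0.92 for gst2 and 0.54 for yhb1. Ranked beside the 136 genes, yhb1 was at rank 5 from gst2, but gst2 only at rank 13 from yhb1. The rank of obr1 was 31 from gst2 and 27 from yhb1. From obr1, gst2 was at rank 51 and yhb1 at rank 36.

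A different set lay near obr1, whose profile was almost flat from T1 to T2. Its nearest gene was SPAC2C4.08, a conserved fungal gene at 9.59, 10.5 and 26.1 FPKM, with a distance of 0.04. The others were dni2, which encodes a predicted tetraspan protein, dip5, an amino acid transporter gene, nic1, a nickel and cobalt transporter gene, and SPAC27D7.11c of the But2 family, at 0.07 to 0.11. This set depended on the scale, since 2 of the 5 genes were also nearest to obr1 by log2 of FPKM + 1, where 4 of 5 were for gst2 and for yhb1. None of these 5 is described as a redox enzyme, and 4 of them had at most 482 counts in any library. Likeness over 3 libraries is a description of these values only.

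**Figure D4:**
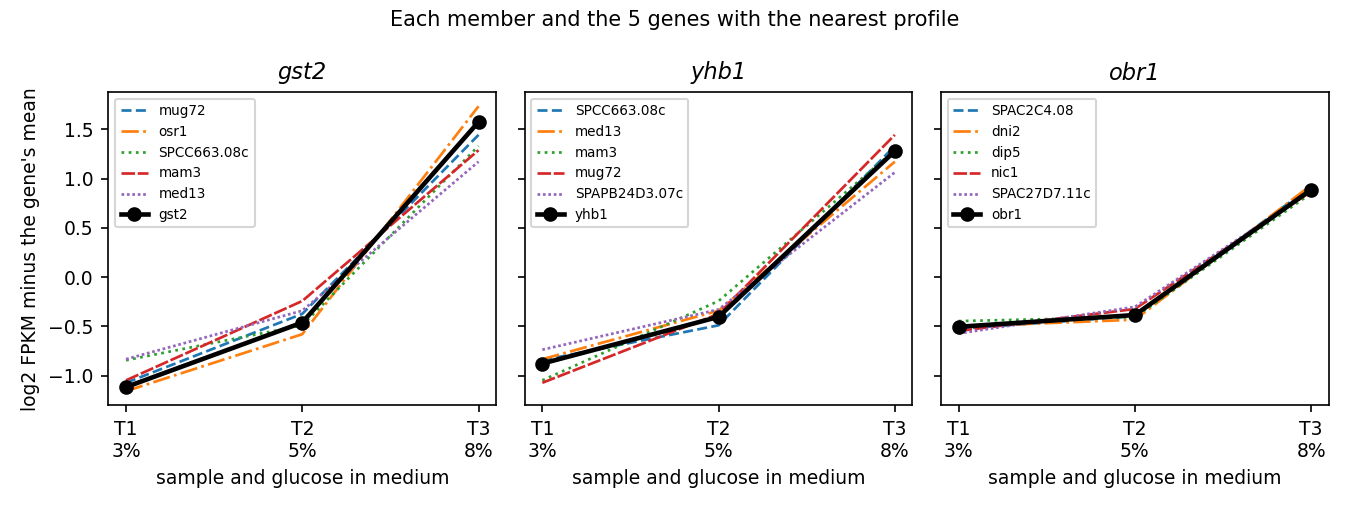
Log2 FPKM in T1, T2 and T3, centred on the mean of each gene (vertical axis), for each member (thick line) and its 5 nearest profiles (thin lines). The gst2 and yhb1 panels share 4 of their 5 genes, while the lines of the obr1 panel are nearly level from T1 to T2 before they rise to T3.

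Beyond the members, 78 genes of glutathione, thioredoxin, peroxide, nitrosative and carbonyl metabolism and of their regulators were looked up in the tables. In T1 vs T3, 8 of them had an entry higher in T3 (10.3%) and 3 one lower in T3 (3.85%). The entries of this table amounted to 4.59% of the 5124 annotated protein-coding genes for higher and 2.58% for lower, and 64.0% of all its entries were higher. These shares of protein-coding genes, and those given below, count every entry, also entries that could not be named. They may therefore be too high. In T2 vs T3, 5 of the 78 were higher (6.41%) and 2 lower (2.56%), where 1.56% and 1.97% of protein-coding genes were listed in these directions and 44.2% of the entries were higher. In T1 vs T2, none was higher in T2 and 1 was lower (1.28%), beside 1.19% and 0.507% of protein-coding genes and 70.1% of the entries higher. T1 vs T3 and T2 vs T3 share the T3 library. The lists were chosen with earlier results of these data known. Of the 8 genes higher in T1 vs T3, 5 came from 14 oxidoreductase, catalase and drug efflux genes, several of them known Pap1 targets. The other 3 came from 12 aldehyde and aldo-keto reductase and dehydrogenase genes. In T2 vs T3 these lists gave 3 and 2 of the higher genes. Apart from the members, no other list had a gene higher in T3.

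Several lists had no entry, which for lists of this size is near the 4.59% and 2.58% of protein-coding genes listed in T1 vs T3. None of 11 genes of glutathione synthesis and recycling, of 8 genes of the thioredoxin and peroxiredoxin system and of 13 redox transcription factors and kinases was listed in any comparison. Of the 3 glutathione S-transferase genes, gst2 was the one listed, and of 4 genes of nitrosative and formaldehyde detoxification it was yhb1. Of 4 superoxide dismutase and catalase genes, the catalase gene ctt1 was listed, at 484 FPKM in T2 and 203 in T3, a ratio of 0.419 (0.400-0.439), the opposite direction to the members.

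A list of 15 oxidoreductase, catalase and drug efflux genes, several of them known Pap1 targets, includes obr1. Without obr1, which had been selected for its increase, 5 of the other 14 were higher in T1 vs T3 (35.7%, beside 4.59% of protein-coding genes) and none was lower. In T2 vs T3, 3 of the 14 were higher (21.4%, beside 1.56%) and 1, ctt1, was lower (7.14%, beside 1.97%). The list was put together with results of these data known. The short chain dehydrogenase gene osr1 had the highest ratio of T3 to T1 of any redox entry, at 7.41 (6.26-8.81), and its interval overlapped that of gst2. SPCC663.08c lies 1812 bases from osr1 on the same strand of chromosome III, with the pseudogene SPCC663.07c between them, and its ratio was 4.51 (3.81-5.37). SPAPB24D3.08c, a predicted NADP-dependent oxidoreductase gene from the list of aldehyde and aldo-keto reductases and dehydrogenases, had 71.2 FPKM in T1, 79.3 in T2 and 208 in T3, a ratio of T3 to T1 of 2.92 (2.66-3.20). It lies 1934 bases from SPAPB24D3.07c, 1 of the 5 genes nearest to yhb1, with no gene between them. The flavin oxidoreductase gene SPBC23G7.10c, at 59.75, 55.55 and 127.85 FPKM, and caf5, a transporter gene at 20.3 FPKM in T1 and 45.1 in T3, were close to the 2-fold threshold of the tables.

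A rule on the words of the descriptions, such as oxidoreductase, dehydrogenase or glutathione, found 26 entries beside gst2 and yhb1, and it does not find obr1. In T1 vs T3, 16 of 22 were higher in T3 (72.7%, beside 64.0% of all entries), and in T2 vs T3 10 of 18 were higher (55.6%, beside 44.2%). Both entries it found in T1 vs T2 were lower in T2.

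Among these entries, the gene abc2 is described as encoding an ATPase that exports glutathione S-conjugates. Such conjugates are the products of glutathione S-transferases. The level of abc2 was 13.9 FPKM in T1, 19.9 in T2 and 40.8 in T3, with a ratio of T3 to T1 of 2.94 (2.61-3.31). The direction was that of gst2, but the ratio lay below the 6.45 of gst2 and the intervals did not overlap. The pyridoxal reductase gene plr1 was at 368, 467 and 982 FPKM, a ratio of T3 to T1 of 2.67 (2.54-2.80) that overlapped that of obr1.

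Of the aldehyde and aldo-keto reductase genes, akr7, a predicted pyridoxal reductase gene, was at 4.43 FPKM in T1, 5.5 in T2 and 13.77 in T3, on 35 to 111 counts. SPBC215.11c, of the aldo-keto reductase family, was at 128 FPKM in T1 and 295 in T3. SPAC5H10.04, from the lists of redox genes, and SPAC5H10.05c, found by the word rule only, had ratios of T3 to T1 of 2.38 and 2.05. These 2 genes overlap by 2078 bases on opposite strands, so their reads cannot be told apart. The aldo-keto reductase gene SPAC977.14c, at 672 FPKM in T1 and 1423 in T3, had fractional counts and shares its best protein match with another entry, so its value is uncertain.

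**Figure D5:**
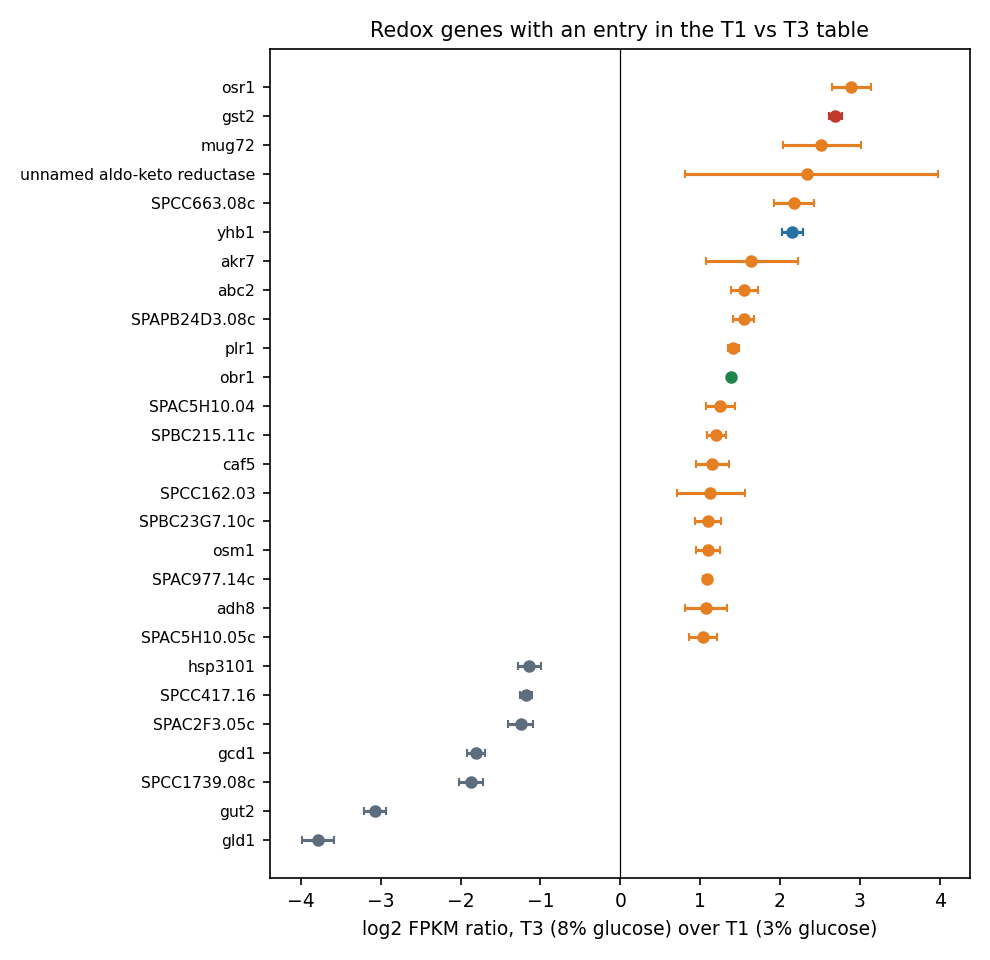
Log2 FPKM ratio of T3 over T1 (horizontal axis) for the 27 redox entries of the T1 vs T3 table (gst2 red, yhb1 blue, obr1 green, other entries orange where higher and grey where lower in T3), with 95% Clopper-Pearson intervals of counting error. Among the members gst2 is at 2.69, yhb1 at 2.15 and obr1 at 1.39, and of the entries shown osr1 is highest at 2.89 and gld1 lowest at -3.79.

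The AP-1-like letters seen before gst2 and obr1 were also looked up in the windows of the other redox entries, found by the lists or the word rule, after their direction was known. TTACGTAA was present in none of the 16 windows of such entries higher in T3 than in T1 without the members, and TTACTAA in 5 of them (31.2%, beside 10.9% of the windows of the other higher entries). Neither was present in the 7 windows of redox entries lower in T3. In the 114 windows of the other lower entries, TTACTAA was present in 10.5% and TTACGTAA in none, so none of 7 is near these shares. TTAGTCA was present in 6 of 16 windows of the higher entries and in none of the 7. The 6 genes were abc2, adh8, caf5, SPAC5H10.05c, SPAC977.14c and SPBC215.11c. Of these, SPAC5H10.05c, also counted for TTACTAA, cannot be told apart in reads from SPAC5H10.04, whose window held none of these letters. The value of SPAC977.14c is uncertain because of its fractional counts. Over the other entries of this table, TTAGTCA was present in 5.70% of 193 windows of higher entries and in 1.75% of 114 windows of lower entries, beside 3.89% of all windows. Among the entries nearest to gst2 or yhb1 by profile, the redox genes mug72, osr1 and SPCC663.08c did not hold these letters, and neither did yhb1. The other nearest entries were not looked up by name. As the lists included known Pap1 targets, this count is a description and not an independent one.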

How the data were processed

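The libraries T1, T2 and T3 (1 each, from 3 pooled cultures) were processed by the authors with SOAPnuke 1.5.6 (filtering of reads), BWA 0.7.12 (genome alignment), Bowtie 1.1.2 (gene alignment) and RSEM 1.2.25 (expression). The deposited tables hold RSEM's expected counts, which need not be whole, the FPKM values derived by the authors from these counts, and the gene length. They are understood to list genes that passed the authors' screens, a Poisson method and NOIseq 2.14.1. The authors' own ratios, p-values and FDR were present and not used. An FPKM of 0.001, written for 0 counts, was treated as 0. No build is named in the sources used here.

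The first sheets were joined by gene identifier. Of 444 entries, 387 were named by accession through ASM294v3, 28 by description and 29 not at all, so list counts may miss genes. Ratios of FPKM carry a 95% interval (Clopper-Pearson, from what share 1 library had in 2 rounded counts), and levels an exact Poisson interval, with Python 3.11.15, numpy 2.4.6 and scipy 1.17.1. Figures were drawn with matplotlib 3.10.9 and coding sequences aligned with Biopython 1.88. The calculation was tested on simulated counts. With 1 library per medium no test was possible. The members, lists and alternatives were chosen with earlier results of these data known. Genes named were the members, the list genes with an entry, the 5 nearest profiles of each member and the word-rule entries with the largest ratios, and further ones named after their values were seen. Alternatives were other scalings, a log2 ratio of at least 2, at least 10 FPKM, a pseudocount of 1 FPKM and the second sheets.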

Additional observations from a re-analysis of the deposited data

How the results depend on the processing

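The members' ratios were recomputed with other scalings. Minus the median log2 ratio of the entries with values in the 3 libraries (0.58 for T3/T1, -0.09 for T3/T2 and 0.42 for T2/T1), gst2 was at 2.11, 2.13 and 0.24 for these ratios, yhb1 at 1.58 for T3/T1 and 0.057 for T2/T1, and obr1 at 0.81, 1.36 and -0.30. Reversal was thus limited to obr1 between T1 and T2, where all other scalings kept a small positive value. These entries are the genes the authors listed and not a set of stable genes. With counts scaled by reads mapped to genes, obr1 was at 1.43 for T3/T1 and 0.17 for T2/T1, and with unscaled counts at 0.18 for T2/T1. At a log2 ratio of at least 2, the list genes with the members came to 4 higher and 0 lower in T1 vs T3, 2 higher and 1 lower in T2 vs T3, and 0 lower in T1 vs T2, and the word-rule entries to 6 and 2, 2 and 3, and 1. With at least 10 FPKM the word rule left 1 entry lower in T1 vs T2, and the second sheets left 0 for the rule and 0 for the lists. Of all other values, 50 stayed within the counting interval, or within 1.5 times for counts. With log2 of FPKM + 1, 2 of the 5 nearest profiles of obr1 were shared. No paired analysis was possible because each medium had 1 library, and no replicate could be left out. The members had 615 or more counts in each library, and the spread between cultures is unknown.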

Other observations

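Some redox entries lay in the opposite direction to the members. The predicted short chain dehydrogenase gene SPCC1739.08c was at 119 FPKM in T1, 91.1 in T2 and 32.7 in T3, a ratio of T3 to T1 of 0.274 (0.247-0.303), and SPAC2F3.05c, described as a xylose and arabinose reductase gene, at 161, 78.2 and 67.9 FPKM. The gene SPCC794.01c (gcd1 in ASM294v3), described as a predicted glucose-6-phosphate 1-dehydrogenase, was highest in T2, at 204, 353 and 58.0 FPKM. Also highest in T2 was SPCC417.16, at 1186, 1711 and 523 FPKM, which is only by its description an NADH-ubiquinone reductase complex subunit gene. Glycerol metabolism genes were lowest in T3 as well, with gld1, a glycerol dehydrogenase gene, at 224, 411 and 16.25 FPKM and gut2, a glycerol-3-phosphate dehydrogenase gene, at 263, 339 and 31.2 FPKM. Between T2 and T3, frp1, a ferric reductase gene, was at 53.3 and 24.6 FPKM, and SPCC594.04c, of the steroid oxidoreductase superfamily, at 73.0 and 36.2. The glyoxalase III family gene hsp3101 was at 184 FPKM in T1 and 83.6 in T3. The short chain dehydrogenase gene SPBC1348.09 had 12 counts in T1 and was listed at 0 in T2. Of the 18 word-rule entries with values in the 3 libraries, 11 were higher at each step, 2 lower at each step, 4 highest in T2 and 1 lowest in T2.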
